A study of Mus musculus with 2 samples.

Results

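Immediate early genes and their relatives were examined in C2C12 myoblasts, namely Fos, Fosb, Fosl1, Fosl2, Jun, Egr1, Egr2, Atf3, Myc and Srf. They were chosen by gene symbol, and all 10 are among the 20128 symbols of the deposited table, each with 1 RefSeq entry. C2C12 is an established mouse line of myoblasts, the dividing cells that can fuse into muscle fibres. GRO-seq maps RNA polymerase II (Pol II) that is engaged in transcription: isolated nuclei extend their transcripts with bromouridine, by which the new RNA is pulled down for sequencing. The 2 replicate libraries came from cells that received no treatment, grown to 80% confluency in high glucose DMEM with 10% fetal bovine serum, penicillin and streptomycin, with 4 plates pooled for each isolation of nuclei. There is thus a single genotype and a single growth condition, without serum withdrawal or stimulation, and induction of these genes was not measured.

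Gene activity is given in RPKmM, the sense-strand read density per kilobase of mappable bases over the gene body, normalised to total reads, which runs from 1 kb downstream of the TSS (transcription start site) to the TES (transcript end site). The first kilobase, where Pol II pauses, is left out. The authors pooled both libraries, so each gene has a single value, no standard deviation or test across replicates was computed, and the reads behind each value were not derived here. The differences below therefore have no replicate check. Among the 13822 active symbols the median activity was 0.860 RPKmM, with quartiles of 0.210 and 1.96. Symbols with several entries are represented by the median of their active entries.

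Immediate early genes are those that growth factors, serum or stress switch on without new protein synthesis, through kinases that act on factors already bound to their promoters. Fos and Jun proteins pair through leucine zippers to form AP-1, which binds TGACTCA and related sites, while Egr proteins bind GC-rich sites through zinc fingers. Srf encodes serum response factor, which binds CArG boxes and controls both growth-responsive and contractile genes, and Myc binds the E-box CACGTG together with its partner Max. In muscle, AP-1 and Myc are known as factors of proliferating myoblasts, and Srf is needed for muscle gene expression.

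The labelled cell type was checked against marker genes. All 5 myoblast markers were active, beside 68.7% of all symbols. Vim was at 146 RPKmM, Des at 72.5, Cdh15 at 8.08, Myf5 at 5.03 and Myod1 at 2.39. All 5 markers of differentiated muscle were active too, so the active call does not separate these states. Myog was at 2.39, the value of Myod1, Tnnt3 at 0.83, Ckm at 0.2, Myh4 at 0.14 and Mb at 0.13. The markers Ptprc of blood, Cdh5 of endothelium, Epcam of epithelium and Alb of liver were inactive, and Cd3e, Pecam1 and Cdh1 were at 0.01, 0.01 and 0.02.

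Promoter windows of these genes were searched for response elements close to the start sites. RefSeq windows from 250 bases before to 50 after a start site, of build GRCm38.p6, matched 7 of the 10 genes with 11 windows; Egr1, Fosl1 and Myc had no entry. Each window was found once in the mm9 sequence. The last 120 bases before the start site are printed 5′ to 3′ in the direction of transcription for 4 genes: Jun and Fos, because they lie far apart in activity and encode partners of the same dimer, and Srf and Egr2, because they hold CArG boxes. Capitals mark the motifs searched. The Jun sequence is chr4:94718914-94719033 on the minus strand of mm9, that of Fos chr12:86814720-86814839 on the plus strand, that of Srf chr17:46693112-46693231 on the minus strand, and that of Egr2 chr10:67000497-67000616 on the plus strand.
Jun: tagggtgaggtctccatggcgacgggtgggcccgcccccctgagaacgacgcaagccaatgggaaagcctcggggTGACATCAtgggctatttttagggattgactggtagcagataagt
Fos: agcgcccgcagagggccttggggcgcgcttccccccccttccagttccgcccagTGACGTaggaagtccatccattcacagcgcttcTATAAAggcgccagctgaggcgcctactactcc
Srf: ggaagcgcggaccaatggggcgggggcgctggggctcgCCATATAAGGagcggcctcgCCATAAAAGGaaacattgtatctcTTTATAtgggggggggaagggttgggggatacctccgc
Egr2: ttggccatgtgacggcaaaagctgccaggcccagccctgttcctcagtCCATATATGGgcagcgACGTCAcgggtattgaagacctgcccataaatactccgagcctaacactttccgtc

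Motifs were searched on both strands over the whole windows, and positions count back from the start site. The Srf promoter held a pair of CArG boxes, from -82 to -73 and from -62 to -53, and the Egr2 promoter printed above held one from -72 to -63. Windows of 2 of the 7 genes had a CArG box, against 1.63% of all 32851 windows and 1.66% of the active symbols with a window. TATAAA was found in Fos, from -33 to -28, and in reverse in Srf, from -38 to -33, and 13.6% of all windows and 9.05% of active symbols with a window, the base of each share of active symbols here, hold it. The full site of Creb and Atf factors, TGACGTCA, was in none of the 7 genes, in 1.79% of all windows and in 3.60% of active symbols. Its shorter core TGACGT, which is also counted inside the full site, was in Fos, Egr2 and Atf3, in 7.51% of all windows and in 13.1% of active symbols. TGACATCA, a variant of the AP-1 site, lay from -45 to -38 in Jun and was in 3.62% of all windows and 2.41% of active symbols; these last 2 motifs were chosen after the sequences had been seen. Another start site of Egr2 held CACGTG, which 7.15% of windows and 11.4% of active symbols hold. TGACTCA and GCGTGGGCG, an Egr site, were in none of the 7 genes, in 5.20% and 0.612% of all windows and in 4.89% and 1.41% of active symbols. The windows reach only 250 bases upstream, so a motif not found here, such as a CArG box in Fos, can lie further upstream. The search describes letters in these windows and says nothing of binding.

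All 10 genes were active, beside 68.7% of all symbols. Their activities ran from 0.05 RPKmM for Fosb to 79.2 for Jun, a ratio of 1584, so the genes did not share a common level. The median was 1.45, with quartiles of 0.757 and 3.40. This is 1.69 times the median of all active symbols, and the ratio was 2.86 between geometric means with a pseudocount of 0.01 and 1.24 between medians of activities of at least 0.1. At 1 RPKmM or above there were 7 of the 10, where 45.7% of active symbols lay, and at 10 or above there were 2, where 2.83% lay. Above the upper quartile of all active symbols were Jun, Myc, Egr1 and Fosl2, below the lower quartile were Fos and Fosb, and the other 4 lay between. Jun alone made up 76.1% of the summed activity of the 10 genes, and Jun and Myc together 89.1%.

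**Figure D1:**
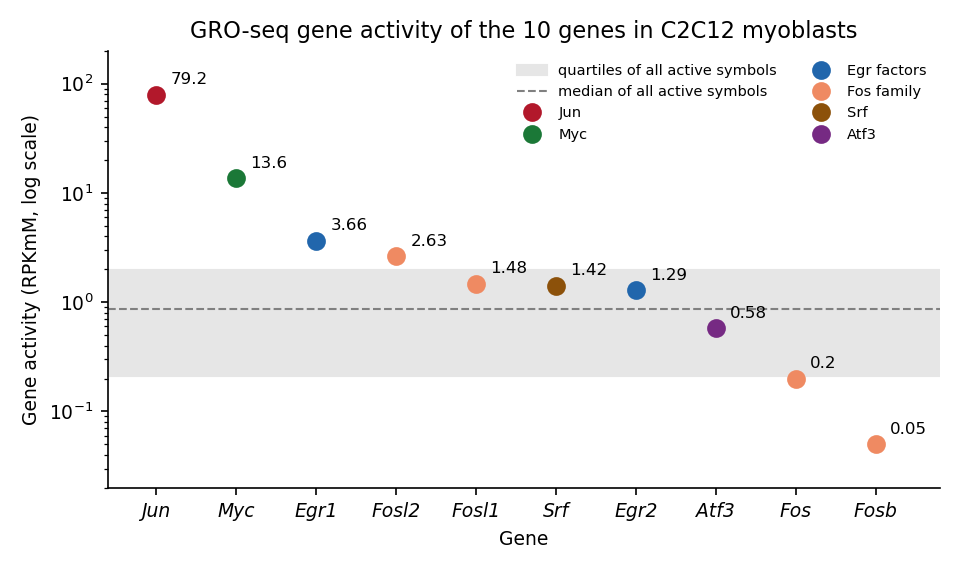
Gene activity of the 10 genes in RPKmM on a log axis, 1 point per gene for the pooled libraries, coloured by gene family, with the quartiles (grey band) and median (dashed line) of all 13822 active symbols. Jun and Myc stand above the rest at 79.2 and 13.6, and Fos and Fosb lie below the grey band at 0.2 and 0.05.

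Jun encodes the AP-1 subunit that can bind DNA as a homodimer or with a Fos protein. It was the most active of the 10 genes at 79.2 RPKmM (NM_010591), higher than 99.8% of active symbols, and 31 symbols had a higher value. The gene has a single exon and occupies positions 94715725 to 94718913 of chromosome 4 in mm9 (minus strand), a span of 3.19 kb. Only 2.19 kb of it lie beyond the first kilobase, so a short stretch carries the value. The transcript BC042782 overlaps it on the opposite strand, whose reads the sense-strand count leaves out.

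The Fos family provides the partners of Jun and cannot form stable homodimers. Its 4 genes summed to 4.36 RPKmM, and Jun was 18.2 times that sum. Fosl2, which encodes Fra-2, had 2.63 RPKmM (NM_008037), and Fosl1, which encodes Fra-1, had 1.48 (NM_010235). Fos itself had 0.2 (NM_010234) and Fosb had 0.05 (NM_008036). The genes of the 2 Fra proteins thus made up 94.3% of the family's summed activity. Fosl2 was 13.1 times as active as Fos and 52.6 times as active as Fosb, while the step from Fosl1 to Fosl2 was 1.78. Values are rounded to 2 decimals, so the Fosb value stands for 0.045 to 0.055 and the ratio of Fos to Fosb for 3.55 to 4.56.

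Jun and Fos are of like size, and their activities differed by a factor of 396, or 386 to 406 within rounding. Fos lies on the plus strand of chromosome 12 from 86814840 to 86818223, a span of 3.38 kb with 2.38 kb beyond the first kilobase, and has 4 exons. Its activity was higher than 24.5% of active symbols. Fosb occupies 19888070 to 19895394 of chromosome 7 (minus strand) and was higher than 14.4%. Both passed the authors' comparison with gene deserts, so Fos and Fosb were called active although 10389 and 11657 symbols had higher values. Fosl1 is on the plus strand of chromosome 19 from 5447703 to 5455945, and was higher than 66.3% of active symbols. Fosl2 is the longest of the 10 genes, on the plus strand of chromosome 5 from 32438845 to 32460204, a span of 21.4 kb, and was higher than 82.4%. Ccdc85b overlaps Fosl1 on the opposite strand and had a nearly equal activity of 1.43; reads of either gene are told apart by strand.

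Egr1 and Egr2 encode zinc finger factors, the second also known as Krox20. Egr1 had 3.66 RPKmM (NM_007913), higher than 88.5% of active symbols, and Egr2 had 1.29 (NM_010118), higher than 61.9%. The ratio was 2.84. Egr1 has 2 exons and a span of 3.78 kb, from 35020861 to 35024638 on the plus strand of chromosome 18. Egr2 spans 6.71 kb from 66998223 to 67004936 on the plus strand of chromosome 10. The Egr2 promoter printed above ends at 67000616, inside this span, so it belongs to a later start site. The start site of the deposited Egr2 entry was not derived here. Their relative Egr3 was lower at 0.720, over entries of 0.7 and 0.74, and Egr4 was inactive. The order within the family was therefore Egr1, Egr2, Egr3 and Egr4. Of the corepressors that bind Egr proteins, Nab2 was at 9.49 and Nab1 at 0.680, so Nab2 exceeded each of the Egr genes.

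Myc encodes the basic helix-loop-helix factor that drives growth and ribosome production. It had 13.6 RPKmM (NM_001177352), higher than 98.1% of active symbols, and 262 symbols had a higher value. It lies on the plus strand of chromosome 15 from 61816946 to 61821929 and has 3 exons. Jun was 5.82 times as active, and Egr1, the next gene in order, was lower than Myc by a factor of 3.72. Its paralogs were far lower, with Mycl at 0.45 and Mycn at 0.04. In the list of 13 genes of the Myc network, which holds Max, the Mxd and Mlx genes, Mnt and Mga, 12 were active and Mlxipl was inactive. Of all symbols, 68.7% were active. None of the 12 reached 10, where 2.83% of active symbols lay, and 4 were at 1 or above, where 45.7% lay. Their median was 0.873, close to that of all active symbols. The highest were Mga at 2.39, Mxd3 at 2.28 and Mnt at 1.43, all repressive partners in the network, and each was below Myc.

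Srf had 1.42 RPKmM (NM_020493), higher than 64.9% of active symbols. Its 7 exons span 46683788 to 46693111 of chromosome 17 (minus strand). With Fosl1 at 1.48 and Egr2 at 1.29 it formed a close group, whose neighbours in order differed by factors of 1.04 and 1.10, beyond rounding but with no replicate error to compare with. All 6 cofactors of Srf in the list were active, beside 68.7% of all symbols. The highest were Elk3 at 3.02, Elk4 at 2.62 and Mkl1 at 2.35. Elk proteins are ternary complex factors and Mkl1 links Srf to actin. Myocd, a cofactor of heart and smooth muscle, was at 0.01. The 16 cytoskeletal and contractile genes known as Srf targets were all active, at a median of 8.53. Of these, 15 lay at 1 or above, where 45.7% of active symbols lay, and 5 at 10 or above, where 2.83% lay. Flna at 100.2, Actb at 53.9 and Zyx at 34.0 were the highest. Thus 14 of the 16 exceeded the upper quartile of active symbols, as did 4 of the 10 genes examined here.

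Atf3 encodes a stress-induced factor that pairs with Jun and mainly represses. It had 0.58 RPKmM (NM_007498), higher than 39.9% of active symbols, and spans 13.0 kb of chromosome 1 (minus strand), between 192994175 and 193007219. Of the 11 other Atf and Creb genes listed, all were active, beside 68.7% of all symbols. At 1 or above there were 10, where 45.7% of active symbols lay, and the median was 2.06. Atf4, the main factor of the integrated stress response, was at 53.3, Atf5 at 7.61 and Atf1 at 3.94. Atf3 was thus below 10 of these 11 and above Crem, which was at 0.440 as the median of 5 entries from 0.38 to 0.64, of which 2 exceed Atf3.

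Activity varied with gene span, so each gene was also placed among symbols of like span. Gene spans were taken from the GENCODE vM1 annotation of mm9, which held 1 gene for 17421 symbols of the table, or 86.6%. Among active symbols of up to 5 kb the median was 0.770 RPKmM with quartiles of 0.150 and 2.39, and 7.15% lay at 10 or above. For spans over 20 and up to 50 kb the median was 1.01, and 2.25% lay at 10 or above. For spans over 100 kb the median was 0.690, and 0.426% lay at 10 or above, so the median did not simply rise with span. Of 1700 active symbols within 2-fold of the span of Jun, 12 were more active than Jun. For Myc, 104 of 2716 were more active. Fos was higher than 26.5% of 1837 active symbols of like span, and Fosb higher than 12.8% of 3568. Egr1 moved most from its place among all symbols, from 88.5% to 82.5%, while each of the others moved less.

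**Figure D2:**
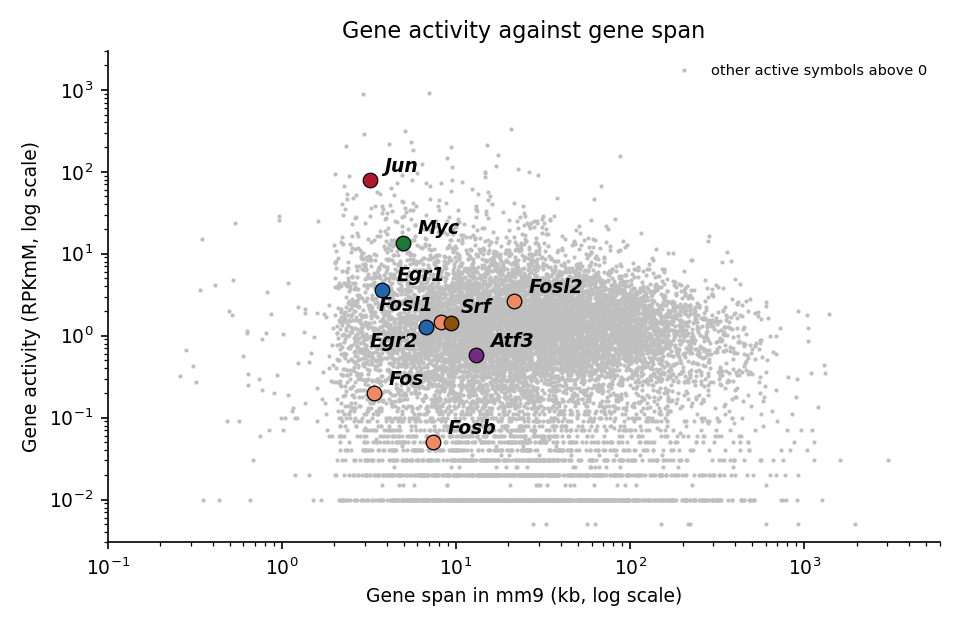
Gene activity in RPKmM against gene span in mm9 in kb, both on log axes, with 1 grey point for each other active symbol above 0 and a coloured point for each of the 10 genes. Jun and Fos have nearly the same span, at 3.19 and 3.38 kb, and lie near the top and in the lower part of the cloud; points under 2 kb are symbols whose GENCODE gene is shorter than their RefSeq entry.

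The 2 nearest symbols of the table on each side, by start site, were taken as chromosomal neighbours. Jun, Myc and Srf were more active than all 4 of their neighbours, that is 3 of the 10 genes, where 25.9% of active symbols were. No gene of the 10 was lower than all 4, where 7.75% of active symbols were. Of the 40 neighbours, 14 were more active than their gene and 7 were inactive, near the 38.5% and 22.4% of all neighbours of active symbols. The highest neighbour of Jun was Mysm1 at 1.84, and that of Myc was Pvt1 at 3.81, a long noncoding RNA that starts 52.6 kb downstream on the same strand.

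Fos lies in a cluster of leucine zipper genes. Jdp2, which encodes a repressor that pairs with Jun and starts 126 kb downstream, was at 3 RPKmM, and Batf, 213 kb downstream, was at 0.01. Upstream of Fos, Tmed10 was at 3.16 and Nek9 at 1.19, so 3 of its 4 neighbours were more active. Beside Fosb, Cd3eap was at 2.87, Ercc1 at 0.770 and Rtn2 at 0.390. Egr1 was below Hspa9 at 13.8 and Etf1 at 7.04, and above Kdm3b and Reep2. Fosl1 was below Drap1 at 13.7 and AI837181 at 1.92. Egr2 was below Ado at 6.43 and Nrbf2 at 1.69, Fosl2 below Ppp1cb at 4.33, and Atf3 below Nenf at 0.860.

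**Figure D3:**
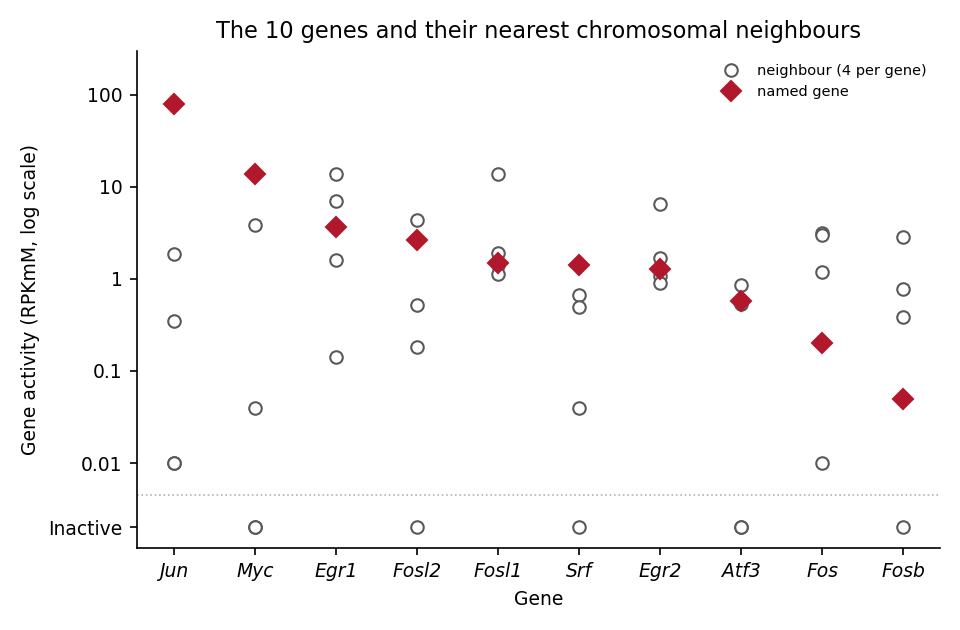
Gene activity in RPKmM on a log axis of each of the 10 genes (diamonds) and of its 4 nearest chromosomal neighbours (circles), with inactive neighbours drawn under the dotted line. Jun, Myc and Srf lie above all 4 of their circles, while Fos and Fosb each lie below 3.

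Other genes of the same response were taken as lists. Of 11 AP-1 partners and relatives with leucine zippers, 10 are in the table; Junb spans 1.81 kb, and the authors kept only genes of 2 kb or longer. Among these, 7 were active, near the 68.7% of all symbols, at a median of 1.37 RPKmM. The highest were Jdp2 at 3, Jund at 2.85 and Mafg at 2.82, and Batf2 and Batf3 were inactive. Jun was therefore more than 10 times as active as each of these 7, Jund included. Of 44 other immediate early genes, Junb, Ier2, Ier3, Ccl2 and Cxcl1 are not in the table and have spans from 1.24 to 1.88 kb. Of the 39 that are, 38 were active, beside 68.7% of all symbols, and Egr4 was inactive. The median of the 38 was 1.51, close to the 1.45 of the 10 genes. Of them, 27 were at 1 or above, where 45.7% of active symbols lay, and 6 at 10 or above, where 2.83% lay.

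The most active of the other immediate early genes were Mcl1, a survival factor, at 24.9 RPKmM, Cyr61, a secreted matrix protein, at 23.5, and Klf6, a zinc finger factor, at 17.6. None of them reached Jun, and all exceeded Myc. Below the lower quartile of all active symbols lay 5 of them. These were Nr4a1 at 0.2, the value of Fos, Arc at 0.12, the cytokine gene Il6 at 0.03, Npas4 at 0.01 and Nr4a3, whose only active entry is listed at 0.

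The lists of genes that carry the signal to these promoters are read beside the 68.7% of all symbols that were active and the 45.7% of active symbols at 1 RPKmM or above. All 17 genes of the Ras and MAP kinase list were active, with 13 at 1 or above and a median of 1.84, against 0.860 for all active symbols. The highest were Nras, which encodes a Ras protein, at 11.4 and Araf, which encodes a Raf kinase, at 8.88. All 11 feedback inhibitors of the pathway were active too, with 8 at 1 or above and a median of 2.29. Spry2 was at 21.8, and the ERK phosphatase genes Dusp6 and Dusp4 were at 12.9 and 6.77. Spry2 was thus above every one of the 10 genes except Jun, and Dusp6 above all but Jun and Myc.

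**Figure D4:**
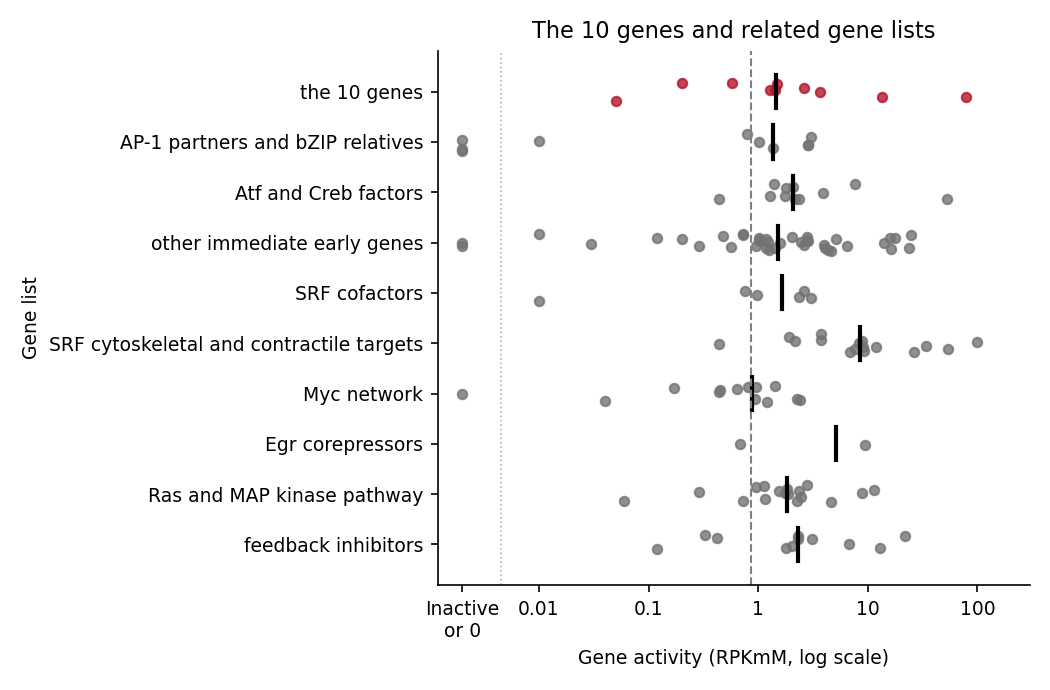
Gene activity in RPKmM on a log axis of the 10 genes and of 9 related lists, 1 point per symbol, with the median of active symbols as a black bar, the median of all active symbols as a dashed line, and inactive symbols or values of 0 left of the dotted line. The list of Srf targets has the highest median, 8.53, and the 10 genes, with a median of 1.45, range from 0.05 to 79.2.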

How the data were processed

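GRO-seq was performed on 2 replicate libraries of C2C12 myoblasts. The authors mapped the reads to mm9 with Bowtie2, kept uniquely mapped reads of mapping quality 40 or higher, trimmed and realigned the rest, discarded reads at rRNA and tRNA repeats and pooled the replicates; CASAVA 1.8 is named in the submitters' processing notes. The authors deposited 1 column of gene activity (RPKmM, an RPKM over mappable bases), rounded to 2 decimals, and wrote Inactive for genes whose density was not significantly above the mean of gene deserts in a Poisson test with control of the false discovery rate. The unit could not be range-checked, as the column mixes numbers and a word. Short genes, removed repeats and the excluded first kilobase can shift single values. Here, levels, ranks, medians and counts were computed with Python 3.11.15, numpy 2.4.6 and pandas 2.3.3, and the functions were tested on simulated data; no p-value was computed. Gene spans and neighbours came from GENCODE vM1 (mm9) by symbol, promoters from RefSeq. No protein sequences were used.

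The genes and lists were chosen with earlier results of these data known. The genes named are the 10 genes, the 3 most active and the inactive symbols of each list, neighbours more active than their gene, and markers; Egr3, Mycn, Mycl, Crem, Batf, Myocd, Nr4a1, Nr4a3, Il6, Npas4, Arc, Mysm1, Pvt1, Kdm3b, Reep2, Ccdc85b and BC042782 are exceptions, picked with their values in view. Alternatives were other levels for calling a gene active or high, other entries per symbol, geometric means with pseudocounts of 0.01 and 1, and short genes only. Some results on listed genes are not reported here.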

Additional observations from a re-analysis of the deposited data

How the results depend on the processing

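All 10 genes were active by the authors' call, 9 at a level of at least 0.1 RPKmM and 7 at 1. The median of 1.45 did not depend on the entry used, since each gene has 1. With no replicate error, any change in the third digit of the ratio to all active symbols was taken as a move. From 1.69 it went to 2.86 and 2.45 with geometric means and pseudocounts of 0.01 and 1, to 1.67 with activities of at least 0.01 or with every entry counted, to 1.24 with activities of at least 0.1, and to 1.85 for spans under 10 kb. It stayed above 1 under each of these. The number of genes at a high level was 2 at 10 and at 5 RPKmM and 1 at 20, as Myc lies between. No replicate could be left out, and no paired analysis was possible because the table of activities holds only the pooled value of both libraries. Read numbers per gene were not derived, and the rounded 0.05 of Fosb can stand for 0.045 to 0.055.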

Other observations

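Among the related lists, a few genes have RefSeq entries whose activities differ, which the 10 genes, with 1 entry each, cannot show. Nr4a2, an orphan nuclear receptor induced early by growth factors, had entries of 0.24 and 0.71 RPKmM, a ratio of 2.96. Lif, a cytokine, had 0.55 and 1.47, and Araf, a kinase upstream of ERK, had 4.86 and 12.91. Tpm1, a tropomyosin gene with several promoters, had 6 entries from 6.19 to 19.12. Nr4a3 had 1 inactive entry and 1 active entry listed at 0, where rounding has removed the digits. Other genes of these lists were even across entries, such as Jdp2, from 2.98 to 3.13 over 3 entries. Entries of a gene overlap and share reads, and these genes were named after their values had been seen.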
